A study of Rattus norvegicus with 6 samples.

Results

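The enzymes that break glucose down to lactate and those that store and release it as glycogen were followed in rat Achilles tendon at birth and in adolescence. The set held 38 genes of 22093 measured, chosen by name from the pathway, with earlier results of these data known. It took in glucose transporters and hexokinases, the enzymes from glucose 6-phosphate to pyruvate and lactate, the enzymes that set the level of fructose 2,6-bisphosphate, and the enzymes of glycogen synthesis and breakdown. Total RNA from the skin-removed Achilles tendon of the left hindlimb of male Sprague Dawley rats had been hybridised to Affymetrix Rat Transcriptome Arrays, with 3 arrays from neonatal rats aged 1 day (P 1d) and 3 from rats aged 6 to 8 weeks (P 6-8w). No transgene or agent was named for either group, each array stood for a separate rat, and the age range of the older group was not resolved per rat. All 38 genes had a signal on all 6 arrays, as log2 values after robust multichip averaging (RMA), a procedure that corrects background and combines the probes of a transcript, so that a difference of 1 is a 2-fold difference in signal.

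Glycolysis splits glucose into pyruvate in the cytosol and yields ATP without oxygen, and lactate dehydrogenase lets it run on by turning pyruvate into lactate. Glycogen is the branched glucose store that skeletal muscle holds in large amounts, built by glycogen synthase and the branching enzyme and opened by glycogen phosphorylase. Tendon is a sparsely vascularised tissue with few cells between collagen fibrils, and several of the enzymes have muscle isozymes (Pfkm, Pgam2, Eno3, Pygm, Gys1) beside more widely expressed ones.

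At 6 to 8 weeks 18 of the 38 genes were lower than at 1 day, and none was higher, by limma with Benjamini-Hochberg adjustment over all 22093 genes and a difference of more than 2-fold. Over all genes, 16.8% were lower and 2.46% higher by the same rule. The 5 enzymes of glycogen synthesis were all lower, 8 of 11 genes of lower glycolysis with lactate dehydrogenase were lower, and no glucose transporter, hexokinase or phosphofructokinase 2 gene passed the rule in either direction. The median log2 difference, P 6-8w minus P 1d here and throughout, was -0.71 over the 38 genes with a range from -4.60 to 0.82, and 0.04 over all genes. In this whole-tissue RNA, fewer cells of a type and less RNA per cell cannot be told apart.

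**Figure D1:**
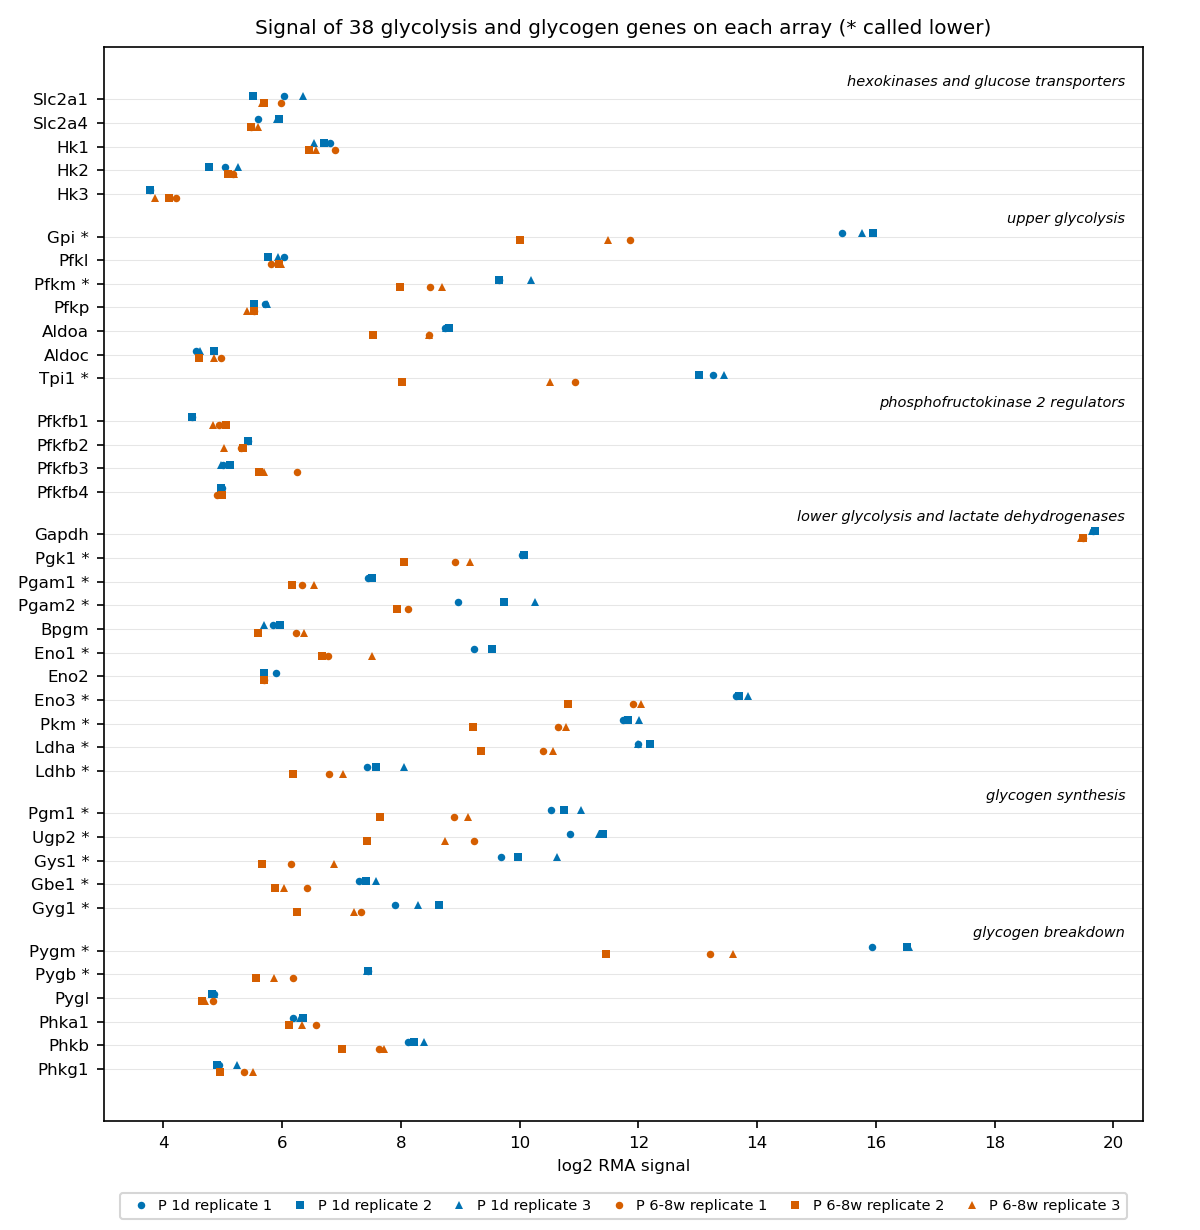
Log2 RMA signal (horizontal axis) of each of the 38 genes on each of the 6 arrays, ordered by role, with P 1d in blue and P 6-8w in orange and the replicate number as the marker shape. The 18 genes marked with an asterisk were called lower at P 6-8w, and Gapdh lies at the upper end of the scale on all 6 arrays.

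The counts depended strongly on how bright a gene was. Genes with a mean signal of 12 or more over the 6 arrays were called lower in 68.4% of cases, those from 8 to 12 in 73.2%, those from 6 to 8 in 47.7% and those under 6 in 2.45%. Of the glycolysis and glycogen genes, 3 of 4 were lower in the brightest range, 10 of 11 from 8 to 12, 5 of 8 from 6 to 8 and 0 of 15 under 6. Their median log2 differences in these ranges were -2.87, -1.95, -1.09 and 0.01, beside -2.43, -1.77, -0.97 and 0.21 for all genes of the same range. In each range the sign of the 2 medians was the same, and the counts below are values of these genes and not a property of the pathway.

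**Figure D2:**
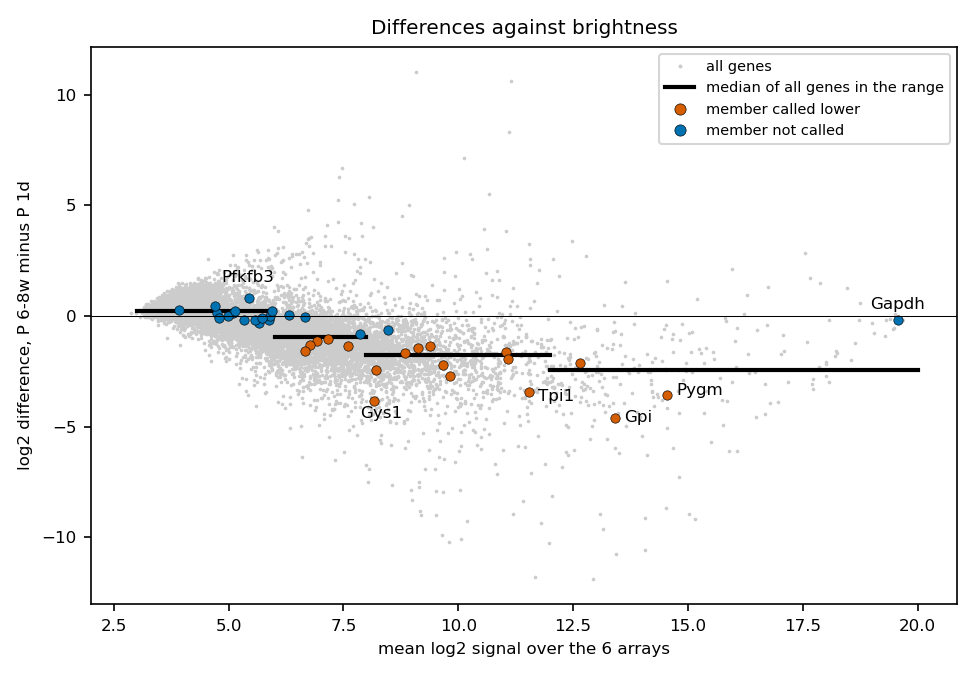
Log2 difference between P 6-8w and P 1d (vertical axis) against the mean log2 signal of the 6 arrays (horizontal axis) for all 22093 genes in grey, with the median of all genes in each of 4 brightness ranges as a black bar. The 18 genes of the pathway called lower (orange) follow the downward course of the grey cloud, and Gpi, Gys1, Pygm and Tpi1 lie below the bar of their range.

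The scaling of the arrays also bore on every value. Over all rows of the table the P 1d arrays had medians of 3.93 to 3.98, against 4.43 to 4.54 for P 6-8w, while the number of genes with a signal of at least 8 was 2783 to 2873 at P 1d and 968 to 1607 at P 6-8w. Centring each array on the median of all genes left 18 of the 38 genes lower, centring on 8 reference genes outside the pathway left 8 lower and 12 higher, centring on genes of mean signal 8 and over left 4 lower and 19 higher, and quantile normalization left 2 lower and 1 higher. The last of these forces every array to the same distribution. Of all calls, 87.2% were lower as deposited, 92.6% after the first centring, 8.76% with the reference genes, 3.32% with the bright genes and 52.6% after quantile normalization. With these settings the median difference of all genes was -0.08, 1.13, 1.83 and -0.00. Gpi and Gys1 were the genes of the pathway called lower in all 5 scalings.

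Markers of other tissue moved with age as well. Of 11 measured genes of adult muscle fibres 6 were lower and 2 higher. The log2 of their summed signal, which follows the brightest genes, was 19.09 to 19.52 at P 1d and 16.12 to 17.75 at P 6-8w. Their array medians did not follow that course, at 11.21, 11.72 and 12.3 for P 1d and 13.26, 11.07 and 13.69 for P 6-8w. Of 5 genes of embryonic and neonatal muscle 4 were lower, with a summed signal of 19.67 to 19.77 at P 1d and 9.09 to 10.46 at P 6-8w. The 7 tendon genes gave a summed signal of 19.80 to 19.90 at P 1d and 19.61 to 19.78 at P 6-8w. This sum followed the upper end of the scale, since Col1a1 read the highest value of the array on all 6 arrays. The array medians of the 7 genes were 13.5, 13.12 and 13.41 at P 1d, against 13.47, 9.36 and 12.37 at P 6-8w. None of the 7 was called. The tendon transcription factors Scx and Mkx were dim at both ages, with means of 4.53 and 4.49 for Scx and 4.82 and 4.87 for Mkx. None of 8 epidermal genes was called, with array medians of 8.69, 4.19 and 12.55 for P 1d and between 4.44 and 4.78 for P 6-8w. Their summed signal ran from 7.16 to 19.32 at P 1d and from 7.58 to 7.86 at P 6-8w. The P 1d arrays thus differed widely in epidermal signal, with replicates 1 and 3 high, and this spread limits the calls. None of 6 erythroid genes and none of 4 Schwann cell genes was called, 1 of 7 myeloid genes and 2 of 4 endothelial genes were lower, and 3 of 5 adipocyte genes were higher. The part of these markers in the differences of the glycolysis and glycogen genes was not tested.

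The second P 6-8w array often held the lowest P 6-8w value, in the pathway and in other lists. It held the lowest P 6-8w value in 27 of the 38 genes, or 71.1%, and in 17 of the 18 genes called lower, beside 36.5% of all genes. It also held the lowest P 6-8w value in all 11 measured muscle fibre genes, 5 of 7 tendon and 3 of 4 endothelial genes. The other lists gave 3 of 4 Schwann cell, 3 of 5 embryonic and neonatal muscle and 3 of 7 myeloid genes. They gave 2 of 8 epidermal, 1 of 6 erythroid and 1 of 5 adipocyte genes. Of the 65 measured genes next to the pathway, counted below, it was lowest in 31, or 47.7%. These shares were not split by brightness. A signal of at least 8 was reached by 968 genes on this array, against 1607 and 1284 on the other P 6-8w arrays. Without this array 17 of the 38 genes were lower and the median difference over the 38 genes was -0.44. With P 1d replicate 2, the neonatal array with the lowest epidermal median, as the lone P 1d array only Pgam2 was called, with a median over the 38 genes of -0.72. A lone array is assumed to vary like those of the other group and leaves the test with less power.

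The sequence around the start site was read from RefSeq for 36 of the 38 genes, as 300-base windows of the GRCr8 build that run from upstream of the annotated start into the first bases of the transcript. The letters ACGTG, a form of the core of the element bound by hypoxia-inducible factors, were searched on both strands. These factors are known to drive many glycolytic genes. A palindromic CACGTG was counted once, and other forms of the core, such as GCGTG, were not searched. ACGTG or its complement was found in 17 of 36 windows and in 19.7% of all 27457 windows. It was in 9 of the 17 windows of genes called lower and in 8 of the 19 windows of the others. CANNTG, the letters bound by muscle regulatory factors of the MyoD family, which take in CACGTG, were in 23 of 36 windows and in 71.6% of all windows. CTA and TAG with any 4 bases between them, a simplified pattern for the MEF2 site of muscle genes, were in 0 of 36 and in 3.83% of all windows. Other forms of that site were not searched. TATAAA was in 5 of 36 windows and in 14.3% of all windows. The median GC content was 58.8% in the windows of the pathway genes and 52.3% in all windows. A match in these letters is a description of the window and not a site shown to be bound. The windows of Gpi and Gys1, the 2 genes with the largest differences, of Pygm, the brightest gene called lower, and of Ldha, the only window of the set with 2 matches, are shown 5′ to 3′ on the strand of the gene, with ACGTG or its complement CACGT in capitals. They lie at chr1:95993212-95993511 on the minus strand for Gpi, and on the plus strand at chr1:105051666-105051965 for Gys1, chr1:213119555-213119854 for Pygm and chr1:106507842-106508141 for Ldha.
Gpi: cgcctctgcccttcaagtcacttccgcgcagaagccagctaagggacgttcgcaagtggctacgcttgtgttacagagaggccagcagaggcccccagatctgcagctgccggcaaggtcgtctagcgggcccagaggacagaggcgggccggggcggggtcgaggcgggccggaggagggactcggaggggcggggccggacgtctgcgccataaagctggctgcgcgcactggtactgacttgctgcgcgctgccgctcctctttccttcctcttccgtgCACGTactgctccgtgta
Gys1: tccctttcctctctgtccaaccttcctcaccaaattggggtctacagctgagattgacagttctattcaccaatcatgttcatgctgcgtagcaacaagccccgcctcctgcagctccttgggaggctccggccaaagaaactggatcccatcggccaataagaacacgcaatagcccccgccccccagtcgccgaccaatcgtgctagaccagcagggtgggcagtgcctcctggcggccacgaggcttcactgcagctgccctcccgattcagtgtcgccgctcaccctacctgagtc
Pygm: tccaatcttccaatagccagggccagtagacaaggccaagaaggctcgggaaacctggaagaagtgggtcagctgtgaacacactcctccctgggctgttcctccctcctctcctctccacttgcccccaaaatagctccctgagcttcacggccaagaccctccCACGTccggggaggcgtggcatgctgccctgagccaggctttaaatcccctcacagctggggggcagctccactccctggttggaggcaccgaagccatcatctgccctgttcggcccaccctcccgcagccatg
Ldha: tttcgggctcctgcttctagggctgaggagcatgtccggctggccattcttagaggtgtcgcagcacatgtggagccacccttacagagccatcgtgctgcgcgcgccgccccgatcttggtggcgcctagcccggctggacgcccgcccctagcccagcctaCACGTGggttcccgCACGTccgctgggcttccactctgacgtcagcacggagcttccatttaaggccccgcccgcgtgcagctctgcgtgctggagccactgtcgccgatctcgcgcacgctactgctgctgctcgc
The Gys1 window held no match to ACGTG or CACGT, and those of Gpi and Pygm held 1 each. No window was found for Slc2a4 and Pgk1 in the table used.

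Entry of glucose and its first phosphorylation were carried by 5 genes, none of which was called, with a median difference of -0.04. Slc2a1, the basal glucose transporter GLUT1, gave 6.03, 5.51 and 6.35 at P 1d, and at P 6-8w 5.98, 5.70 and 5.67. Slc2a4, the insulin-responsive transporter GLUT4 of muscle and fat, gave 5.60, 5.95 and 5.92 at P 1d, against 5.48, 5.48 and 5.60 at P 6-8w. The groups overlapped for Slc2a1 and touched at 5.60 for Slc2a4, with differences of -0.18 ± 0.23 (SE, n = 3 per group, limma adjusted p = 0.52) and -0.30 ± 0.11 (adjusted p = 0.0673). Hk1, the widely expressed hexokinase, ranged from 6.54 to 6.81 at P 1d and from 6.46 to 6.90 at P 6-8w. Hk2, the hexokinase of insulin-sensitive tissue, ranged from 4.77 to 5.26 and from 5.09 to 5.20. The groups overlapped for both, with 95% intervals of the difference from -0.40 to 0.31 for Hk1 and from -0.20 to 0.46 for Hk2. Hk3, a hexokinase of blood cells, read 3.78 in each P 1d rat and 4.22, 4.09 and 3.87 in the P 6-8w rats, without overlap but at the dim end of the scale, and the difference of 0.28 ± 0.10 missed the threshold (adjusted p = 0.0599). Such equal readings at P 1d were found for 2 of the 38, Hk3 and Pfkfb2, and for 16.6% of all genes.

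Upper glycolysis held the gene with the largest difference of the set. Gpi, glucose-6-phosphate isomerase, which turns glucose 6-phosphate into fructose 6-phosphate, gave 15.43, 15.95 and 15.76 at P 1d, and at P 6-8w 11.86, 10 and 11.49. All 3 neonatal arrays lay far above the adolescent ones, and the gap between the groups exceeded the spread within either. The means were 15.71 ± 0.26 and 11.12 ± 0.98 (SD, n = 3 arrays each), a difference of -4.60 ± 0.51 (SE, 95% interval -5.87 to -3.32, limma adjusted p = 0.00157), which is a 24.2-fold lower signal and the 119th most negative difference of all genes. Without the second P 6-8w array it was -4.04 (adjusted p = 0.000874), and after quantile normalization -1.98 (adjusted p = 0.00331). Tpi1, triosephosphate isomerase, which interconverts the 3-carbon products of the aldolase step, gave 13.25, 13.02 and 13.45 at P 1d, against 10.94, 8.02 and 10.51 at P 6-8w. The groups did not overlap, and the second P 6-8w array was lowest by a wide margin. The difference was -3.42 ± 0.79 (SE, limma adjusted p = 0.0159), or -2.52 without that array. The row used for these Tpi1 values is labelled as unmapped, and a second row is labelled with chromosome 4, where the gene lies. That second row gave 12.27, 11.97 and 12.28 at P 1d, and at P 6-8w 10.15, 9.59 and 10.80. The order of groups was the same, with a smaller distance between them and no wide margin of the second P 6-8w array. With the 2 rows averaged the difference was -2.71 (limma adjusted p = 0.00901). The Tpi1 call was lost when any 1 of the P 1d arrays was left out, with adjusted p from 0.0503 to 0.0567.

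Phosphofructokinase, the committed step of glycolysis, has a muscle, a liver and a platelet isozyme, and only the muscle gene was called. Pfkm gave 9.66, 9.65 and 10.20 at P 1d, against 8.50, 7.98 and 8.70 at P 6-8w, without overlap, a difference of -1.44 ± 0.25 (SE, n = 3 per group, limma adjusted p = 0.00606). The liver gene Pfkl gave 6.03, 5.76 and 5.93 at P 1d, and at P 6-8w 5.81, 5.95 and 5.98. Its groups lay over each other, with a 95% interval of the difference from -0.23 to 0.24. The platelet gene Pfkp ranged from 5.53 to 5.75 at P 1d and from 5.41 to 5.53 at P 6-8w, touching at 5.53, and its difference of -0.17 ± 0.08 was not called (adjusted p = 0.123). Aldolase, which cleaves fructose 1,6-bisphosphate, was carried by Aldoa, the muscle form, and Aldoc, the brain form. Aldoa gave 8.75, 8.82 and 8.77 at P 1d, against 8.47, 7.54 and 8.47 at P 6-8w, all lower but with a spread at P 6-8w that came from the second array. The difference of -0.62 ± 0.27 was not called (adjusted p = 0.102). Aldoc ranged from 4.56 to 4.86 and from 4.61 to 4.97, with overlap.

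The phosphofructokinase 2 enzymes make and remove fructose 2,6-bisphosphate, the strongest activator of phosphofructokinase, and their 4 genes had a median difference of 0.22 with no call. Pfkfb3, the isozyme with the highest kinase activity, gave 5.0, 5.12 and 4.97 at P 1d, and at P 6-8w 6.26, 5.61 and 5.69. All adolescent arrays lay above all neonatal ones, at a dim level in both groups. The difference was 0.82 ± 0.19 (SE, 95% interval 0.36 to 1.29, limma adjusted p = 0.0149), past the p threshold but under a 2-fold change, and after quantile normalization it was 1.2 (adjusted p = 0.00731), which was called. Pfkfb1, the liver and muscle gene, gave 4.48, 4.48 and 4.49 at P 1d, against 4.94, 5.06 and 4.83 at P 6-8w, a difference of 0.46 ± 0.07 (adjusted p = 0.00505), also under 2-fold and in the dim range. Pfkfb2, the heart isozyme, read 5.43 on each P 1d array and 5.31, 5.35 and 5.02 at P 6-8w, and Pfkfb4 ranged from 4.98 to 4.99 and from 4.91 to 4.99. Neither passed the p threshold, at adjusted p of 0.135 and 0.715.

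**Figure D3:**
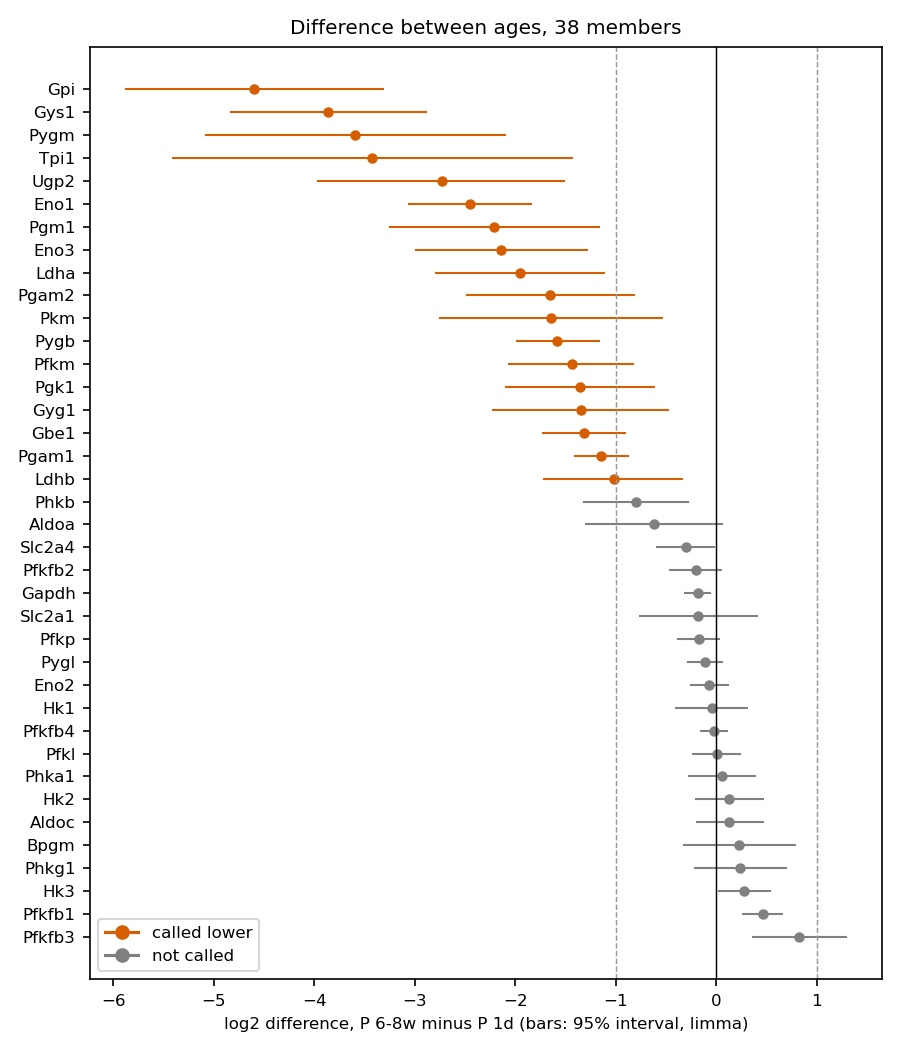
Log2 difference between P 6-8w and P 1d (horizontal axis) for each of the 38 genes, ordered from the most negative, with the 95% interval of the limma fit as a bar and dashed lines at a 2-fold difference. The 18 genes called lower (orange) run from Gpi at -4.60 to Ldhb at -1.02, and Pfkfb3 at 0.82 is the highest of the 20 genes not called (grey).

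In lower glycolysis the dehydrogenase that opens the energy-yielding part could not be read. Gapdh, glyceraldehyde-3-phosphate dehydrogenase, gave 19.65, 19.69 and 19.64 at P 1d, and at P 6-8w 19.49, 19.49 and 19.45, which was 0.10 to 0.11 under the highest value of each array. The highest values themselves were 19.74 to 19.79 at P 1d and 19.56 to 19.59 at P 6-8w, so that the Gapdh difference of -0.18 ± 0.05 (adjusted p = 0.0273) followed the upper end of the scale and cannot be read as a difference in its RNA. Pgk1, phosphoglycerate kinase, which makes the first ATP of the pathway, gave 10.04, 10.08 and 10.08 at P 1d, against 8.92, 8.05 and 9.16 at P 6-8w. The neonatal arrays were tightly grouped and the adolescent ones all lower, a difference of -1.36 ± 0.29 (SE, n = 3 per group, limma adjusted p = 0.0129).

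Both phosphoglycerate mutases, which move the phosphate from carbon 3 to carbon 2 of glycerate, were lower. The widely expressed Pgam1 gave 7.44, 7.52 and 7.52 at P 1d, and at P 6-8w 6.33, 6.17 and 6.54. The muscle gene Pgam2 gave 8.96, 9.74 and 10.26 at P 1d, against 8.13, 7.94 and 7.94 at P 6-8w. Neither gene's groups overlapped, although the neonatal Pgam2 values were spread over more than the distance between its lowest neonatal and highest adolescent array. The differences were -1.15 ± 0.11 (SE, limma adjusted p = 0.000921) for Pgam1 and -1.65 ± 0.33 (adjusted p = 0.0103) for Pgam2. A second row for Pgam1 was dim, at 3.98 to 4.19 over the 6 arrays, and averaging the rows ended the Pgam1 call. Bpgm, which makes 2,3-bisphosphoglycerate in red cells, ranged from 5.69 to 5.96 at P 1d and from 5.60 to 6.37 at P 6-8w, with overlap.

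Of the enolases, which make phosphoenolpyruvate, the ubiquitous Eno1 and the muscle gene Eno3 were lower and the neuronal Eno2 was not called. Eno1 gave 9.24, 9.54 and 9.54 at P 1d, and at P 6-8w 6.78, 6.68 and 7.51. Its groups were well apart, with means of 9.44 ± 0.17 and 6.99 ± 0.45 (SD, n = 3 arrays each) and a difference of -2.45 ± 0.24 (SE, limma adjusted p = 0.00119). Eno3 gave 13.65, 13.69 and 13.85 at P 1d, against 11.91, 10.82 and 12.04 at P 6-8w. These groups were apart as well, with means of 13.73 ± 0.11 and 11.59 ± 0.67 and a difference of -2.14 ± 0.34 (SE, adjusted p = 0.00484). After quantile normalization the Eno3 difference changed sign, to 0.47. Eno2 read 5.70 on 5 of the 6 arrays and 5.90 on the first P 1d array.

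The genes of the last steps were lower too. Pkm, pyruvate kinase, which makes pyruvate and ATP, gave 11.74, 11.82 and 12.01 at P 1d, and at P 6-8w 10.64, 9.21 and 10.79, without overlap, a difference of -1.64 ± 0.44 (SE, n = 3 per group, limma adjusted p = 0.0254). Ldha, the lactate dehydrogenase subunit of muscle, gave 11.99, 12.19 and 11.99 at P 1d, against 10.40, 9.35 and 10.56 at P 6-8w, again with the groups apart, a difference of -1.95 ± 0.33 (adjusted p = 0.00614). Ldhb, the heart subunit, gave 7.43, 7.58 and 8.05 at P 1d, and at P 6-8w 6.79, 6.18 and 7.02. The gap between the lowest neonatal and the highest adolescent Ldhb array was narrow, and the difference of -1.02 ± 0.27 (adjusted p = 0.0249) was just past 2-fold. Among the genes just outside that limit, Phkb stood at -0.80 and Aldoa at -0.62. The Ldhb call was lost without P 1d replicate 2 (adjusted p = 0.065), P 1d replicate 3 (adjusted p = 0.0733) or P 6-8w replicate 1 (adjusted p = 0.0544), and without P 6-8w replicate 2, where the difference was -0.78. The Pkm call was lost without any 1 of the P 1d arrays, at adjusted p from 0.0683 to 0.0809.

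All 5 genes of glycogen synthesis were lower, with a median difference of -2.21. Pgm1, Ugp2 and Gys1 had mean signals from 8 to 12, where 73.2% of all genes were called lower. Gyg1 and Gbe1 lay from 6 to 8, where 47.7% were. Gys1, glycogen synthase 1 of muscle, which adds glucose units to the growing chain, gave 9.68, 9.97 and 10.63 at P 1d, against 6.16, 5.67 and 6.87 at P 6-8w. The lowest neonatal array was far above the highest adolescent one. The means were 10.09 ± 0.49 and 6.23 ± 0.60 (SD, n = 3 arrays each), a difference of -3.86 ± 0.39 (SE, 95% interval -4.83 to -2.89, limma adjusted p = 0.00119), or a 14.5-fold lower signal. It was -3.58 without the second P 6-8w array and -2.53 after quantile normalization (adjusted p = 0.00925). The quantile-normalized Gys1 signals were 8.87, 9.08 and 9.65 at P 1d, and at P 6-8w 6.47, 6.06 and 7.49, still without overlap. For Gpi they were 14.09, 14.53 and 14.45 at P 1d, against 12.54, 11.94 and 12.65 at P 6-8w, also without overlap.

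The signals of the genes that supply the synthase were lower as well. Pgm1, phosphoglucomutase, which turns glucose 6-phosphate into glucose 1-phosphate, gave 10.53, 10.75 and 11.03 at P 1d, and at P 6-8w 8.90, 7.65 and 9.13, a difference of -2.21 ± 0.42 (SE, n = 3 per group, limma adjusted p = 0.00835). Ugp2, which makes UDP-glucose, the donor of the chain, gave 10.85, 11.41 and 11.34 at P 1d, against 9.23, 7.43 and 8.74 at P 6-8w, a difference of -2.73 ± 0.49 (adjusted p = 0.00701). In both genes the groups were apart and the second P 6-8w array was lowest. Gbe1, the branching enzyme, gave 7.30, 7.41 and 7.59 at P 1d, and at P 6-8w 6.42, 5.89 and 6.04, with groups apart and a difference of -1.32 ± 0.16 (adjusted p = 0.00212). Gyg1, glycogenin, the protein that primes each glycogen particle, gave 7.91, 8.64 and 8.29 at P 1d, against 7.33, 6.25 and 7.21 at P 6-8w. Its groups were apart, with a difference of -1.35 ± 0.35 (adjusted p = 0.0225), and its call was lost without P 1d replicate 2 (adjusted p = 0.0753) or P 1d replicate 3 (adjusted p = 0.0691). After quantile normalization the differences were -0.34 for Pgm1, -0.85 for Ugp2, -0.37 for Gbe1 and -0.07 for Gyg1, none of them called.

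Among the genes of glycogen breakdown, the muscle and brain phosphorylases were lower, and the liver phosphorylase and the phosphorylase kinase subunits were not called. Pygm, muscle glycogen phosphorylase, which frees glucose 1-phosphate from the chain ends, gave 15.94, 16.52 and 16.56 at P 1d, and at P 6-8w 13.21, 11.45 and 13.59. The groups were apart, and the second P 6-8w array was again lowest. The means were 16.34 ± 0.35 and 12.75 ± 1.14 (SD, n = 3 arrays each), a difference of -3.59 ± 0.59 (SE, limma adjusted p = 0.0055), or a 12-fold lower signal, and -2.94 without that array. Pygb, the brain form, gave 7.45, 7.45 and 7.43 at P 1d, against 6.18, 5.56 and 5.86 at P 6-8w, a difference of -1.58 ± 0.16 (adjusted p = 0.00125), with tight neonatal values. Pygl, the liver form, ranged from 4.82 to 4.85 at P 1d and from 4.65 to 4.84 at P 6-8w, with overlap. After quantile normalization the differences were -0.94 for Pygm and -0.71 for Pygb, neither of them called.

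Phosphorylase kinase, which switches phosphorylase on, is built of regulatory and catalytic subunits. The beta subunit gene Phkb gave 8.13, 8.23 and 8.39 at P 1d, and at P 6-8w 7.63, 7.01 and 7.71. Its groups did not overlap, and its difference of -0.80 ± 0.21 (SE, limma adjusted p = 0.0225) passed the p threshold at less than a 2-fold change. Phka1, the muscle alpha subunit, ranged from 6.19 to 6.36 at P 1d and from 6.11 to 6.57 at P 6-8w. Phkg1, the muscle catalytic subunit, ranged from 4.91 to 5.25 and from 4.95 to 5.51. Both overlapped between the ages, with adjusted p of 0.722 and 0.282.

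Counted by the arrays alone, 22 of the 38 genes had all P 6-8w values below all P 1d values, 3 had all of them above and 13 overlapped. Over all genes the shares without overlap were 34.1% lower and 34.8% higher. The 3 genes with higher values were Hk3, Pfkfb1 and Pfkfb3, all dim. The 4 genes that were apart in the lower direction without a call were Aldoa, Pfkfb2, Gapdh and Phkb. At an unadjusted p under 0.05 by limma 24 of the 38 genes passed, beside 13540 of all 22093 genes, a similar share.

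Pairs of isozymes were then compared within each array, which removes a shift that acts on all signals of an array alike but not one that varies with brightness. The ratio of 2 signals does not give the ratio of their transcripts, so only its move between the ages was read, over 12 pairs with an exact two-sided permutation test of 3 arrays against 3, whose smallest p is 0.1 and whose smallest value adjusted over the 12 pairs was 0.15. No pair could therefore pass the threshold. Eno3 over Eno1 was 4.41, 4.15 and 4.31 at P 1d, against 5.13, 4.14 and 4.53 at P 6-8w on the log2 scale, and the groups overlapped, with a shift of 0.31 ± 0.30 (SE, exact p = 0.5). After quantile normalization it was 3.96, 3.66 and 3.86 at P 1d, against 5.46, 5.33 and 4.92 at P 6-8w, apart, with a shift of 1.41, so whether the muscle and ubiquitous enolase signals moved alike depended on the scaling. Pgam2 over Pgam1 shifted by -0.50 ± 0.38 (exact p = 0.3), also with overlap, and by 0.14 after quantile normalization, with overlap. Pygm over Pygb was 8.49, 9.07 and 9.13 at P 1d, and at P 6-8w 7.03, 5.89 and 7.73, apart, with a shift of -2.01 ± 0.57 (exact p = 0.1). Pfkm shifted by -1.45 ± 0.29 over Pfkl and by -1.27 ± 0.29 over Pfkp, and Pygm by -3.48 ± 0.66 over Pygl, with the groups apart in each (exact p = 0.1 each). After quantile normalization these separations were gone. The shift was -0.24 for Pygm over Pygb, -0.74 for Pygm over Pygl, -0.36 for Pfkm over Pfkl and 0.02 for Pfkm over Pfkp, and the groups overlapped in all 4 pairs.

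Among the other pairs, Ldhb over Ldha was -4.56, -4.61 and -3.94 at P 1d, against -3.61, -3.17 and -3.54 at P 6-8w, with all adolescent arrays higher and a shift of 0.93 ± 0.26 (SE, exact p = 0.1). Aldoc over Aldoa shifted by 0.75 ± 0.22, Hk3 over Hk1 by 0.32 ± 0.13 and Eno2 over Eno1 by 2.38 ± 0.31, with the groups apart (exact p = 0.1 each). Eno2 hardly varied, with means of 5.77 at P 1d and 5.70 at P 6-8w, so its pair mostly restated the Eno1 difference of -2.45. Hk3 was dim, at 3.78 on each P 1d array. After quantile normalization the shift of Ldhb over Ldha was -0.10 with overlap, that of Aldoc over Aldoa -0.95 and that of Hk3 over Hk1 -1.01, all of the opposite sign, and that of Eno2 over Eno1 was 1.41 with the groups apart. Slc2a4 over Slc2a1 and Hk2 over Hk1 overlapped as deposited, with shifts of -0.12 ± 0.32 (exact p = 0.8) and 0.17 ± 0.23 (exact p = 0.6), which were -0.22 with overlap and -0.64 with the groups apart after quantile normalization.

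**Figure D4:**
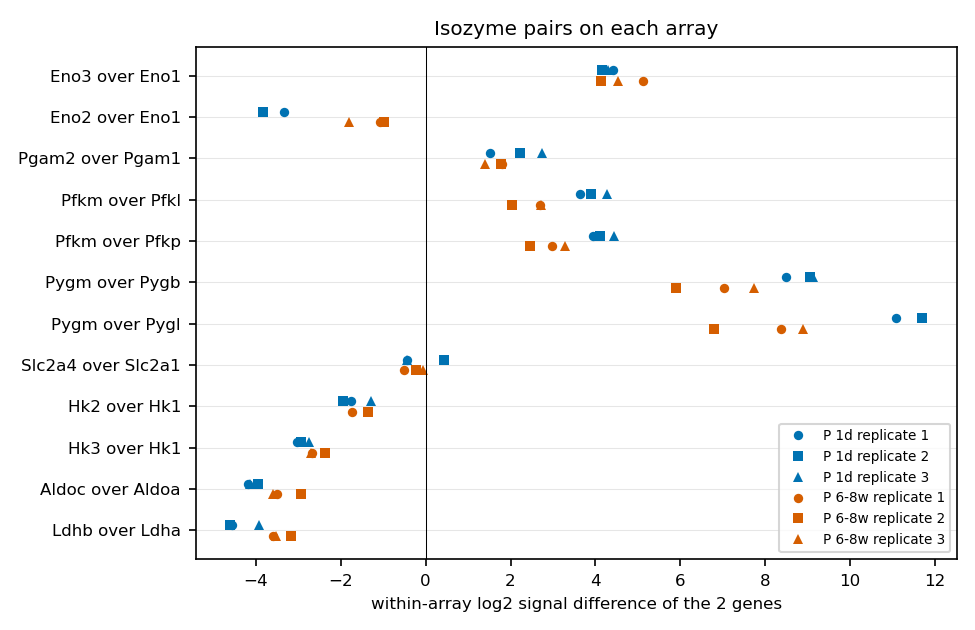
Within-array difference of the log2 signals as deposited (horizontal axis) of 12 isozyme pairs on each of the 6 arrays, with P 1d in blue, P 6-8w in orange and the replicate number as the marker shape. Pygm over Pygb, Pygm over Pygl and Pfkm over Pfkl and Pfkp lie lower on all 3 P 6-8w arrays, while the groups overlap for Eno3 over Eno1 and Pgam2 over Pgam1.

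Genes next to the pathway were counted for context. Of 73 listed, 65 were measured, of which 21 were lower and 1 higher, with a median difference of -0.43. Over all genes 16.8% were lower and 2.46% higher, with a median of 0.04. As for the pathway, these counts depend on the brightness of the genes and the scaling of the arrays. Of 13 genes of pyruvate entry to mitochondria 7 were lower, with a median of -1.11. Pdha1, the catalytic subunit of pyruvate dehydrogenase, gave 12.57, 13.73 and 13.42 at P 1d, and at P 6-8w 10.32, 8.48 and 9.84, a difference of -3.69 (limma adjusted p = 0.00421). Pdk4 and Pdk2, kinases that switch pyruvate dehydrogenase off, differed by -4.16 (adjusted p = 0.00409) and -2.98 (adjusted p = 0.00312). These kinases and the enzyme they act on were thus lower on the same arrays.

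The remaining neighbours gave smaller counts. Of 12 other glycogen genes 6 were lower, with a median of -1.01, and of 16 regulators 6 were lower, with a median of -0.87, among them Prkaa2, the muscle catalytic subunit of AMP-activated kinase, at -2.51 (limma adjusted p = 0.0028). Of 5 pentose phosphate genes 1 was lower, and of 6 genes of lactate and glucose transport and 6 other isozymes none was called. Of 7 gluconeogenesis genes 1 was lower and 1 higher. The higher one, Pck1, which makes phosphoenolpyruvate from oxaloacetate in liver and fat, gave 3.65, 3.75 and 3.64 at P 1d, against 4.95, 4.68 and 4.74 at P 6-8w, without overlap and dim at both ages, a difference of 1.11 (adjusted p = 0.000639).

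Centring moves the difference of every gene by the same amount. Which of the 18 genes stay called after it therefore follows mainly from the size of the deposited difference, and is no separate evidence. Gpi, Gys1, Pygm and Tpi1 were called lower as deposited and after each of the 3 centrings, and Gpi and Gys1 after quantile normalization too. For Tpi1 this rests on the row labelled as unmapped, and its second row was not tested under these scalings. Eno1, Eno3, Pgm1 and Ugp2 were called lower as deposited and after centring on all genes or on the reference genes, and not with the bright genes or after quantile normalization. The other 10 were called only as deposited and after centring on the median of all genes.

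**Figure D5:**
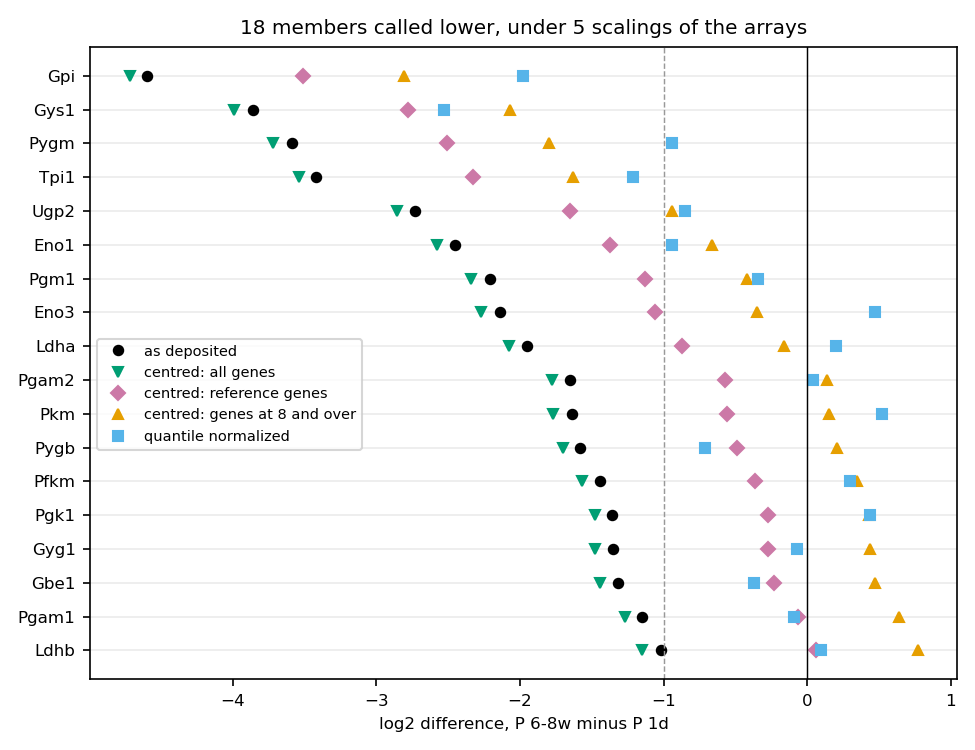
Log2 difference between P 6-8w and P 1d (horizontal axis) of the 18 genes called lower, as deposited and after 4 other scalings of the arrays, with a dashed line at a 2-fold difference. Gpi and Gys1 stay left of the dashed line in all 5 scalings, while Ldhb moves from -1.02 to 0.77 with centring on bright genes.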

How the data were processed

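Log2 RMA signal intensities of 68842 rows on 6 arrays were deposited by the authors, who had used RMA with Affymetrix default settings and global scaling, and the values carry 2 decimals. The probe build was not given in the sources used here. The series matrix repeated these values, equal in 413052 of 413052 cells. Of the rows, 23446 named exactly 1 gene through the platform annotation, 505 named several and 44891 were unnamed here. Symbols were brought up to date through GRCr8 gene IDs (22077 of 22246 found, 1 symbol changed). Where several rows named a gene, the one brightest on average was taken, giving 22093 genes.

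Differences were fitted with limma 3.58.1 (lmFit, eBayes) in R 4.3.3 over all genes, with no block, and a call required a difference of more than 2-fold (1 on the log2 scale) with p under 0.05 after Benjamini-Hochberg adjustment. The fit was tested on simulated data. Precision was limited by 3 arrays per group. The number of per-sample columns left out was 0. Named genes were all 38 enzymes and, of the neighbours, up to 4 called genes in each direction with the largest differences. The rule also allowed the 2 brightest genes of each marker list, of which Col1a1 is named and the rest are given as lists only. Scx and Mkx were named after their values were seen. The set and the lists were chosen with earlier results of these data known. Some listed neighbours are not reported here. Several glycolytic genes, Gapdh among them, have processed copies in the genome, and probes may take signal from near-identical copies. Alternatives covered the test, the fold limit, the scaling, the filter on dim genes, the rows per gene, genes at the upper limit, the replicate block and leaving out each array.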

Additional observations from a re-analysis of the deposited data

How the results depend on the processing

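The count of 18 enzymes called lower was 15 to 20 with other tests, no fold limit, a replicate block, centring on all genes, no dim genes, rows averaged per gene, no genes at the upper limit or the second table, and 14 to 18 when 1 array was left out. It fell to 4 with centring on genes of mean signal 8 and over, 8 with reference genes, 2 with quantile normalization and 1 with P 1d replicate 2 alone, a setting chosen after seeing the data. Enzymes called higher numbered 2 without a fold limit and, in the first 3 of those scalings, 19, 12 and 1. Neighbouring genes called lower numbered 4, 8 and 8 in those scalings and 7 with the lone array, and those called higher 37, 23 and 4. The latter numbered 11 without a fold limit, 0 with centring on all genes, without genes of mean signal under 5 and with the lone array, and 1 to 2 when 1 array was left out. The cause was not tested.

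With centring on genes of mean signal 8 and over, differences turned positive for Slc2a1 (1.61), Slc2a4 (1.49), Hk1 (1.75), Pfkm (0.35), Pfkp (1.62), Aldoa (1.17), Pfkfb2 (1.59), Pfkfb4 (1.77), Gapdh (1.61), Pgk1 (0.43), Pgam1 (0.64), Pgam2 (0.14), Eno2 (1.72), Pkm (0.15), Ldhb (0.77), Gbe1 (0.47), Gyg1 (0.44), Pygb (0.21), Pygl (1.68) and Phkb (0.99). With reference genes this held for Hk1 (1.04), Pfkfb4 (1.06), Eno2 (1.02), Ldhb (0.06), Slc2a1 (0.90), Slc2a4 (0.78), Pfkp (0.91), Aldoa (0.46), Pfkfb2 (0.88), Gapdh (0.90), Pygl (0.97) and Phkb (0.28). With quantile normalization it held for Pfkm (0.30), Pgk1 (0.44), Pgam2 (0.04), Eno3 (0.47), Pkm (0.52), Ldha (0.20), Ldhb (0.10), Slc2a1 (0.41), Slc2a4 (0.19), Hk1 (0.93), Pfkp (0.28), Aldoa (0.98), Pfkfb2 (0.08), Pfkfb4 (0.02), Gapdh (0.06), Eno2 (0.47) and Phkb (0.63), while Hk3 turned negative (-0.08). The shift of Pfkm over Pfkp became 0.02, Hk3 over Hk1 -1.01, Aldoc over Aldoa -0.95, Ldhb over Ldha -0.10, Pgam2 over Pgam1 0.14 and Hk2 over Hk1 -0.64, each of the opposite sign. The t-test named in the methods called 18 enzymes lower unadjusted and 15 after Benjamini-Hochberg adjustment.

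With the replicate number as a block, 17 enzymes were lower and 0 higher, and 20 neighbouring genes lower and 1 higher. Only Gyg1 lost its call (adjusted p = 0.0677 by limma). Deviations of same-numbered arrays correlated at 0.083, -0.109 and 0.085 over 9674 genes, so the numbers were not taken to pair the rats, and not every array correlated best with its own number. With 3 arrays per group small differences go undetected, and the upper limit of the scale hides any difference in Gapdh.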
